A study of Mus musculus with 4 samples.

Results

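Myrf, its paralog Myrfl and Tmem98, which encodes a partner of the MYRF protein, were followed through sorted lung cells of Myrf mutant and Cre control mouse embryos. They are the 3 of 32285 listed genes that carry these symbols, and they were chosen by name with earlier results of these data known. MYRF is made as a membrane protein of the endoplasmic reticulum that assembles into trimers and cuts itself, which frees an N-terminal fragment that enters the nucleus and binds DNA. It is best known as a factor that oligodendrocytes need to make and keep central nervous system myelin. TMEM98 is a membrane protein that binds MYRF and inhibits this self-cleavage. In humans, MYRF variants are associated with diaphragmatic hernia together with heart and urogenital defects, and variants of both MYRF and TMEM98 with small eyes.

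The study addressed the role of MYRF in the mesothelium, a simple epithelium on the lung surface. Myrf mutant embryos carried floxed Myrf, Wt1creERT2, which is a tamoxifen-dependent Cre recombinase expressed where Wt1 is active, and a tdTomato reporter in the R26 locus. Cre control embryos shared the Cre, the reporter and the tamoxifen given to the dam at E12.5, and all lungs were collected at E16.5 (E, embryonic day). Living tdTomato-positive cells were profiled by droplet sequencing of transcript 3′ ends in 2 Myrf mutant and 2 Cre control libraries. Each genotype was a pool of 3 to 5 lungs, from which about 50000 cells were sorted and about 16000 loaded, and its embryos were picked by the look of lungs and cells before PCR typing. The labels describe both parents as Myrf Fl/Fl and do not spell out the Myrf alleles of the controls. Whether replicate libraries stem from different pools is not stated either, so p-values measure only the spread between these libraries. Which exons were floxed is not given in the sources used here. A 3′ tag outside the deleted part is counted in a deleted cell too, so the Myrf level checks neither the deletion nor the labels.

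After filtering, the libraries held 411 and 4275 Myrf mutant cells with 20954282 and 80755665 UMIs (unique molecular identifiers, each standing for a captured transcript), against 281 and 3503 Cre control cells with 8175944 and 58045818 UMIs. Replicate 1 of either genotype was small and deep, with a median of 38719 UMIs per cell in the mutant and 29175 in the control. Replicate 2 was large and shallower, at 15957 UMIs in the mutant and 14322 in the control. The labels call all libraries mesothelial cells, but mesothelial-like cells numbered 2 and 10 in the mutant libraries, against 119 and 738 in the controls. Muscle-like cells, led by Des, Tnnt2 and Actc1, numbered 262 and 1432 in the mutants, against 2 and 22 in the controls. Their cluster met 6 of 10 muscle markers and 9 of 10 smooth muscle markers, so the name rests on its leading genes. In control replicate 2, 2051 barcodes (58.5%) formed a cluster called mixed, as 79.8% of the markers lay within 2-fold of the rest of that library. This cluster met 8 of 12 mesothelial markers and 1 muscle marker, and it was left without a cell type name. Any pair of libraries shared at most 4 cell barcodes.

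The genes lie on different chromosomes in GENCODE vM21 (mm10). Myrf (ENSMUSG00000036098) spans 10208272 to 10240748 on the minus strand of chromosome 19 with 27 exons, and its last exon, where most 3′ tags of the gene would fall, covers 10208272 to 10210465 (2194 bases). Myrfl (ENSMUSG00000034057) spans 116776535 to 116896919 on the minus strand of chromosome 10 with 25 exons. Tmem98 (ENSMUSG00000035413) spans 80810175 to 80822033 on the plus strand of chromosome 11 with 7 exons. None of them overlaps another annotated gene. Of the members, Tmem98 matched an entry of the RefSeq promoter table, and its promoter is shown beside the annotation as context for its levels. The sequence is the 250 bases before the RefSeq start on the plus strand, at chr11:80810116-80810365 (RefSeq, GRCm38.p6). Capitals mark matches to the GC box GGGCGG on either strand. The starts differ between annotations: RefSeq has 80810366, while the GENCODE start, 80810175, lies within the sequence shown. Most of the sequence, with all marked GC boxes, is therefore inside the gene as GENCODE annotates it.
Tmem98 promoter: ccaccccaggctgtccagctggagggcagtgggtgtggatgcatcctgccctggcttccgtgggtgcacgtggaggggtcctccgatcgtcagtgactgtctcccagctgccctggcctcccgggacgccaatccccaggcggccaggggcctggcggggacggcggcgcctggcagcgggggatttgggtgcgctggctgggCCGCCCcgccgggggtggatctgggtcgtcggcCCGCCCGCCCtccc
Of these bases, 74.8% are G or C. Within 300 bases around the RefSeq start, the GC box matched 3 times, a pair of them overlapping, and 35.7% of 32851 RefSeq promoters of that length hold it at least once. Both motif forms searched for MYRF, CTGGCAC and CTGGTAC, had no match there on either strand, and 5.01% and 2.24% of promoters hold them. GGAATG, the TEAD motif, also had none, and 14.7% of promoters hold it.

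Across all sorted cells, Myrf was at 19.1 and 7.22 CPM (UMIs of a gene scaled to a common total per library) in the mutant libraries, against 76.0 and 48.5 CPM in the Cre controls. The UMI counts behind these levels were 400 and 583 in the mutants, against 621 and 2817 in the controls. Both mutant libraries lay below both controls, and the ratio between the mutant libraries was larger than that between the controls. The fitted log2 change was -2.22 ± 0.41 (SE, n = 2 libraries each), with a 95% interval of -3.22 to -1.22. It did not pass edgeR's quasi-likelihood test (Benjamini-Hochberg adjusted p = 0.131). With DESeq2 in place of edgeR it passed, at a log2 change of -2.21 and an adjusted p of 1.32e-05. In edgeR's quasi-likelihood fit it also passed without mutant replicate 1 (adjusted p = 5.98e-10), without mutant replicate 2 (0.00735) or without control replicate 2 (0.0358), but not without control replicate 1 (0.156). Without the filter on low counts it passed as well (log2 change -2.21, adjusted p = 7.35e-06).

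Tmem98 was at 26.0 and 25.8 CPM in the mutant libraries, against 50.6 and 39.2 CPM in the controls. The mutants were nearly equal and lay below both controls, without overlap. The share of all genes whose groups separate in this way is not given, so separation of groups is only a description here and below. The log2 change of Tmem98 was -0.71 ± 0.23 (SE, n = 2 libraries each; 95% interval -1.26 to -0.15), and it did not pass (edgeR quasi-likelihood, Benjamini-Hochberg adjusted p = 0.395; DESeq2 adjusted p = 0.489). So 0 of the 2 members tested passed with edgeR, both had an unadjusted p under 0.05, and DESeq2 called 1, Myrf. Of all 16246 genes tested with edgeR, 58 passed (0.357%), 55 of them lower in mutants (0.339% of genes tested), and 1420 had an unadjusted p under 0.05 (8.74%). DESeq2 called 499 of these 16246 genes (3.07%). By the sign of edgeR's log2 change, 7661 of the 16246 genes were lower in mutants.

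**Figure D1:**
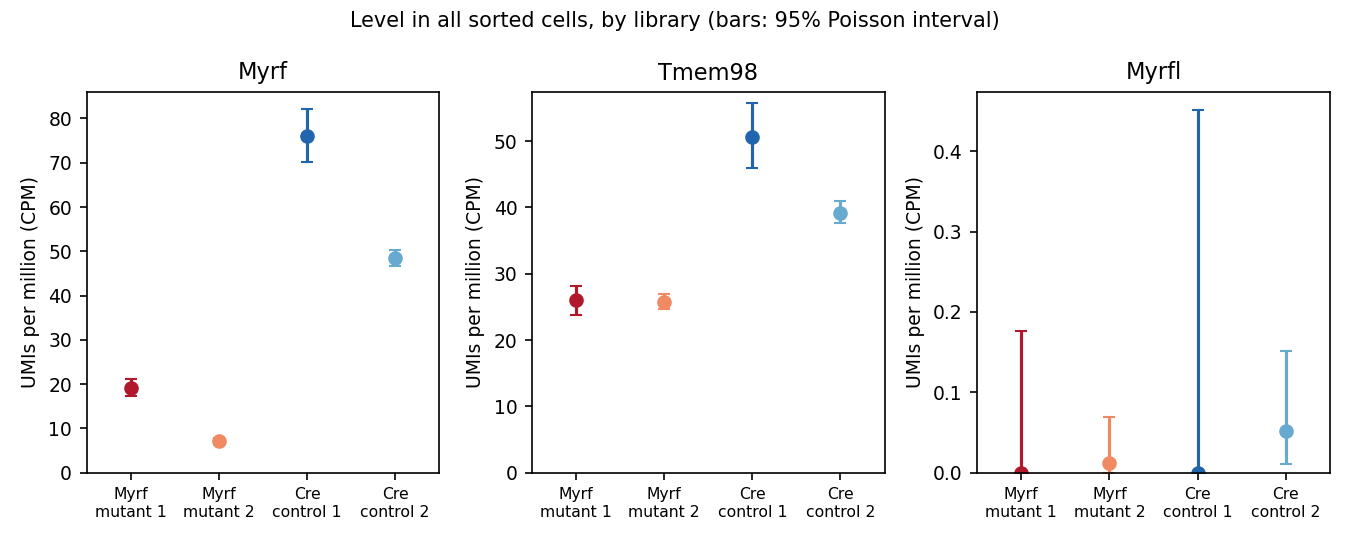
Level of Myrf, Tmem98 and Myrfl over all sorted cells of each library in CPM, with bars for the exact 95% Poisson interval, which covers counting error only. Both mutant libraries lie below both controls for Myrf and Tmem98, and Myrfl stays under 0.1 CPM in all 4.

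Myrfl was nearly unread. It had 0 and 1 UMI in the mutant libraries, against 0 and 3 UMIs in the controls, 4 UMIs in 8470 cells. Of these, 2 were in mixed barcodes, 1 in a mesothelial-like cell of control replicate 2 and 1 in a muscle-like cell of mutant replicate 2. In the libraries without a UMI, 3 counts would be 0.143 CPM in mutant replicate 1 and 0.367 CPM in control replicate 1. Myrfl fell under the filter on low counts and was not tested there. Without that filter its log2 change was -1.77 ± 2.08 (edgeR quasi-likelihood adjusted p = 0.954), so a difference was not detectable at this depth.

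The share of cells with at least 1 Myrf UMI was 43.3% and 10.4% in the mutant libraries, against 47.3% and 42.4% in the controls. The mutant means and spreads were 26.8 ± 23.3%, against 44.8 ± 3.51% in controls (SD, n = 2 each), and the exact two-sided permutation test over libraries gave p = 0.667. Shares of this kind follow depth, and the deep mutant replicate 1 lay near the controls. With every cell thinned to 5000 UMIs, leaving out 463 shallower cells, the Myrf share was 8.25% and 3.31% in mutants, against 21.8% and 21.1% in controls. At matched depth both mutant libraries thus lay below both controls, by 15.7 percentage points on average (exact permutation p = 0.333, the smallest this design allows).

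Before thinning, Tmem98 was read in 60.1% and 34.7% of mutant cells, against 54.4% and 42.3% of control cells. These groups overlapped, and their means differed by -0.981 percentage points (exact permutation p = 1). Thinned to 5000 UMIs, the Tmem98 shares were 12.4% and 11.7% in mutants, against 21.8% and 16.7% in controls. The groups then no longer overlapped, with a difference of -7.21 points (exact permutation p = 0.333).

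**Figure D2:**
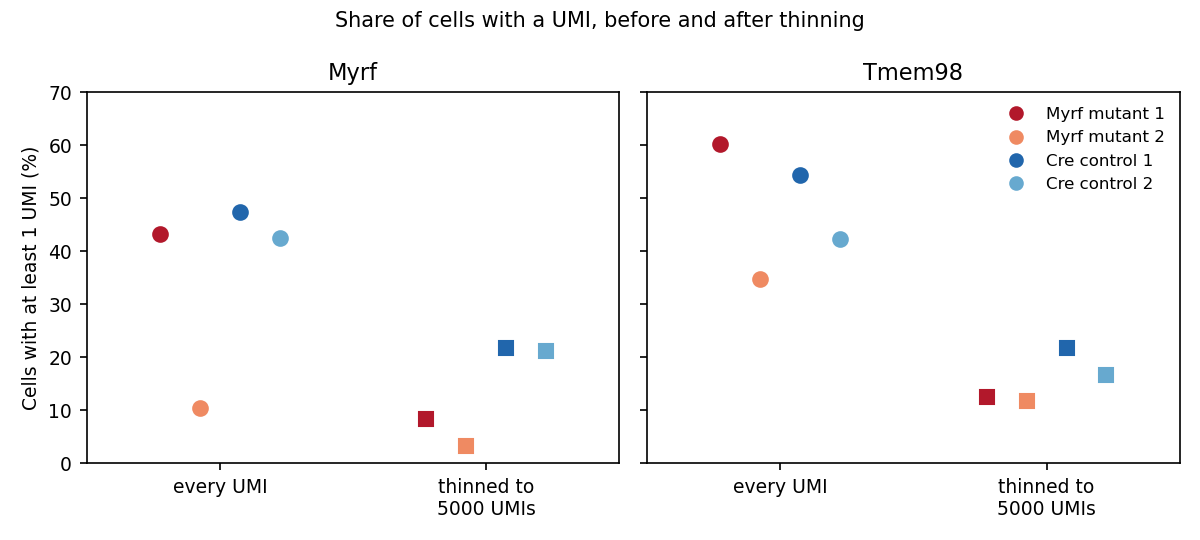
Share of cells with at least 1 UMI of Myrf or Tmem98 in each library, before thinning (circles) and with each cell thinned to 5000 UMIs (squares). Before thinning, mutant replicate 1 lies between the controls for Myrf and above both for Tmem98, while after thinning both mutant libraries lie below both controls for both genes.

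The summed levels mix cell types, and in sums over cells fewer cells of a type and less RNA per cell cannot be told apart. Classes were therefore described one at a time. They are clusters of these same cells, made without the 3 members, so differences between classes are descriptions and carry no test.

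Myrf was highest in mesothelial-like cells. Their level was 43.6 CPM (7 UMIs in 2 cells) and 77.3 CPM (18 UMIs in 10 cells) in the mutant libraries, against 138 and 101 CPM in the controls. The exact 95% Poisson intervals were 17.5 to 89.9 and 45.8 to 122 CPM in mutants, against 127 to 150 and 96.5 to 106 CPM in controls. The interval of mutant replicate 2 overlaps that of control replicate 2, and a mutant level from so few cells is no basis for a comparison. In the controls, 93.3% and 81.8% of mesothelial-like cells held a Myrf UMI, and 43.2% and 41.2% after thinning. At least 5 Myrf UMIs were found in 63 of 119 cells of control replicate 1 and in 78 of 738 cells of the shallower control replicate 2.

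Both mesothelial-like clusters carried Myrf. The large one, led by Slc26a7, Pnoc and Col4a4, was at 135 and 101 CPM in the controls. The small one, led by Col6a5, Plxdc1 and Dhrs9, was at 182 CPM (8 cells) and 106 CPM (67 cells). In control replicate 2 the intervals of the clusters overlapped, at 95.8 to 106 and 90.3 to 123 CPM. Tmem98 in the same library was at 55.8 CPM in the large and 62.2 CPM in the small cluster, also with overlapping intervals of 52.0 to 59.8 and 50.5 to 75.9 CPM.

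Most Myrf UMIs of the mutants came from muscle-like cells, 360 of 400 (90.0%) and 436 of 583 (74.8%). The level in these cells was 25.4 and 14.9 CPM in the mutant libraries, against 37.7 CPM (2 UMIs in 2 cells) and 52.4 CPM (21 UMIs in 22 cells) in the controls. The mutant intervals, 22.9 to 28.2 and 13.5 to 16.4 CPM, did not overlap each other, and both lay below the 32.4 to 80.1 CPM of control replicate 2. In these 22 control cells Upk3b, a uroplakin of the mesothelial surface, was at 52.4 CPM, against 5.79 and 6.84 CPM in muscle-like cells of the mutants, and the part of mesothelial RNA in the difference was not tested. After thinning, 12.4% and 7.15% of muscle-like mutant cells held a Myrf UMI, against 0 of 2 cells and 22.7% in controls. At least 5 Myrf UMIs were found in 13 of 262 and 3 of 1432 muscle-like mutant cells.

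At a finer clustering the muscle-like cells of the mutants fell into 3 clusters, and Myrf was read in each. In the cluster led by Actc1 and Myl4 it was at 24.6 and 10.5 CPM in mutant replicates 1 and 2. An unnamed cluster led by Thsd7b and Cldn11 had 26.1 and 15.4 CPM of Myrf. It held 135 and 791 of the mutant cells and met 1 muscle and 1 smooth muscle marker. In the cluster led by Krtdap, Des and Ccl2, Myrf was at 25.5 and 18.5 CPM. In each of the 3 clusters mutant replicate 1 was the higher library.

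Within muscle-like cells, Myrf was read about as often without as with Wt1, the gene that drives the Cre and that encodes a mesothelial transcription factor. At 5000 UMIs per cell, Myrf was read in 9.52% of 42 cells with a Wt1 UMI and in 12.9% of 209 without one in mutant replicate 1. In mutant replicate 2 these shares were 6.97% of 201 cells and 7.18% of 1197 cells. The exact binomial intervals of each pair of shares overlap. Wt1 itself was at 35.2 and 31.2 CPM in muscle-like cells of the mutants, against 75.3 CPM (4 UMIs) and 44.9 CPM (18 UMIs) in the few of the controls.

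In fibroblast-like cells Myrf was low, at 2.63 and 2.17 CPM in mutants, against 7.51 and 4.64 CPM in controls. Both mutant libraries lay below both controls. Before thinning, 7.45% and 3.71% of fibroblast-like mutant cells held a Myrf UMI, against 11 of 88 cells and 9.68% in controls. After thinning it was 0 of 87 cells and 1.25% in mutants, against 1 of 77 cells (1.3%) and 3.63% in controls. Mutant replicate 2 and control replicate 1 were then nearly equal. In control replicate 1, a single fibroblast-like cell held 5 of the 20 Myrf UMIs. Of endothelial-like cells, which are not known for Myrf, 0 of 8 and 0 of 47 mutant cells held a Myrf UMI (allowing shares up to 36.9% and 7.55%, exact Clopper-Pearson), against 1 of 14 (7.14%) and 1 of 12 (8.33%) control cells. The median depth of fibroblast-like cells was 33749 and 16378 UMIs in mutants, against 31347 and 22139 in controls. That of endothelial-like cells was 58125.5 and 5711 in mutants, against 10713.5 and 8265 in controls. With so few endothelial-like cells at other depths, these shares set no firm level of background from free RNA.

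Fitted on fibroblast-like cells alone, the log2 change of Myrf was -1.21 ± 0.47 and did not pass (edgeR quasi-likelihood adjusted p = 1, unadjusted under 0.05). Of 12549 genes 0 passed in that fit, and 244 had an unadjusted p under 0.05. A mesothelial marker moved with this result: Upk3b in fibroblast-like cells was at 0.584 and 0.118 CPM in mutants, against 5.63 and 23.9 CPM in controls, and its part in the result was not tested. Wt1 in the same cells was at 2.92 and 3.49 CPM in mutants, against 2.63 and 23.4 CPM in controls.

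Smooth muscle-like cells had 5.64 CPM (3 UMIs) and 1.18 CPM (6 UMIs) of Myrf in mutants, against 4.62 CPM (2 UMIs) and 8.61 CPM (28 UMIs) in controls, and the groups overlapped. Upk3b was at 0 in both mutant libraries there, against 13.8 and 31.4 CPM in controls. Epithelial-like cells, led by Cldn18 and Sftpc, had 10.5 and 9.64 CPM of Myrf in mutants (21 UMIs each), against 13.6 CPM (3 UMIs) and 13.4 CPM (17 UMIs) in controls. The intervals of the epithelial-like levels all overlapped, at 6.47 to 16 and 5.97 to 14.7 CPM in mutants, against 2.81 to 39.8 and 7.79 to 21.4 CPM in controls. Pericyte-like cells held 0 and 2 Myrf UMIs in mutants, against 0 and 1 in controls. Immune-like cells held 0 and 2 in mutants, against 5 in control replicate 2, the control library that had such cells.

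The mixed barcodes of control replicate 2 held 1071 of the 2817 Myrf UMIs of that library (38.0%), at 43.9 CPM, between its mesothelial-like and its fibroblast-like cells. Without mixed barcodes the log2 change of Myrf over sorted cells was -2.22 again, and it did not pass (edgeR quasi-likelihood adjusted p = 0.148). Among the profiles of at least 20 cells, the order of Myrf levels was mesothelial-like cells of the controls, muscle-like cells of control replicate 2, muscle-like cells of the mutants and epithelial-like cells, and below these the profiles of the other classes interleaved. From the muscle-like cells of mutant replicate 2 downward, neighbours in this order mostly had overlapping intervals.

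Tmem98 was more even. In mesothelial-like cells it was at 24.9 CPM (4 UMIs) and 38.6 CPM (9 UMIs) in mutants, against 71.0 and 56.4 CPM in controls. These control levels were the highest of any profile of at least 20 cells, and their intervals, 63.2 to 79.5 and 52.8 to 60.2 CPM, lay above those of each other named class with at least 20 cells in the same library. In mutants the few mesothelial-like cells gave intervals of 6.79 to 63.8 and 17.7 to 73.4 CPM, which overlap most others.

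In muscle-like cells Tmem98 was at 25.2 and 24.3 CPM in mutants, against 37.7 CPM (2 UMIs) and 15 CPM (6 UMIs) in controls. Fibroblast-like cells had 28.3 and 26.2 CPM in mutants, against 27.8 and 23.3 CPM in controls, and the groups overlapped. Smooth muscle-like cells had 33.8 and 31.9 CPM in mutants, against 23.1 and 33.2 CPM in controls, again with overlap. So did epithelial-like cells, at 26.9 and 28.0 CPM in mutants, against 27.2 and 22.8 CPM in controls.

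Endothelial-like cells also read Tmem98, at 29.5 and 16.4 CPM in mutants, against 16.9 and 25.8 CPM in controls. Pericyte-like cells were at 13.1 and 17.0 CPM in mutants, against 27.4 and 11.3 CPM in controls, each from 8 UMIs or fewer. In the finer clusters of muscle-like cells, mutant replicate 2 had 28.2 CPM of Tmem98 in the Thsd7b cluster (25.5 to 31.0) and 18.2 CPM in the Krtdap cluster (15.6 to 21.2), while mutant replicate 1 had 25.8 and 23.8 CPM. The gap between these clusters was therefore seen in only 1 of the 2 libraries beyond counting error.

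**Figure D3:**
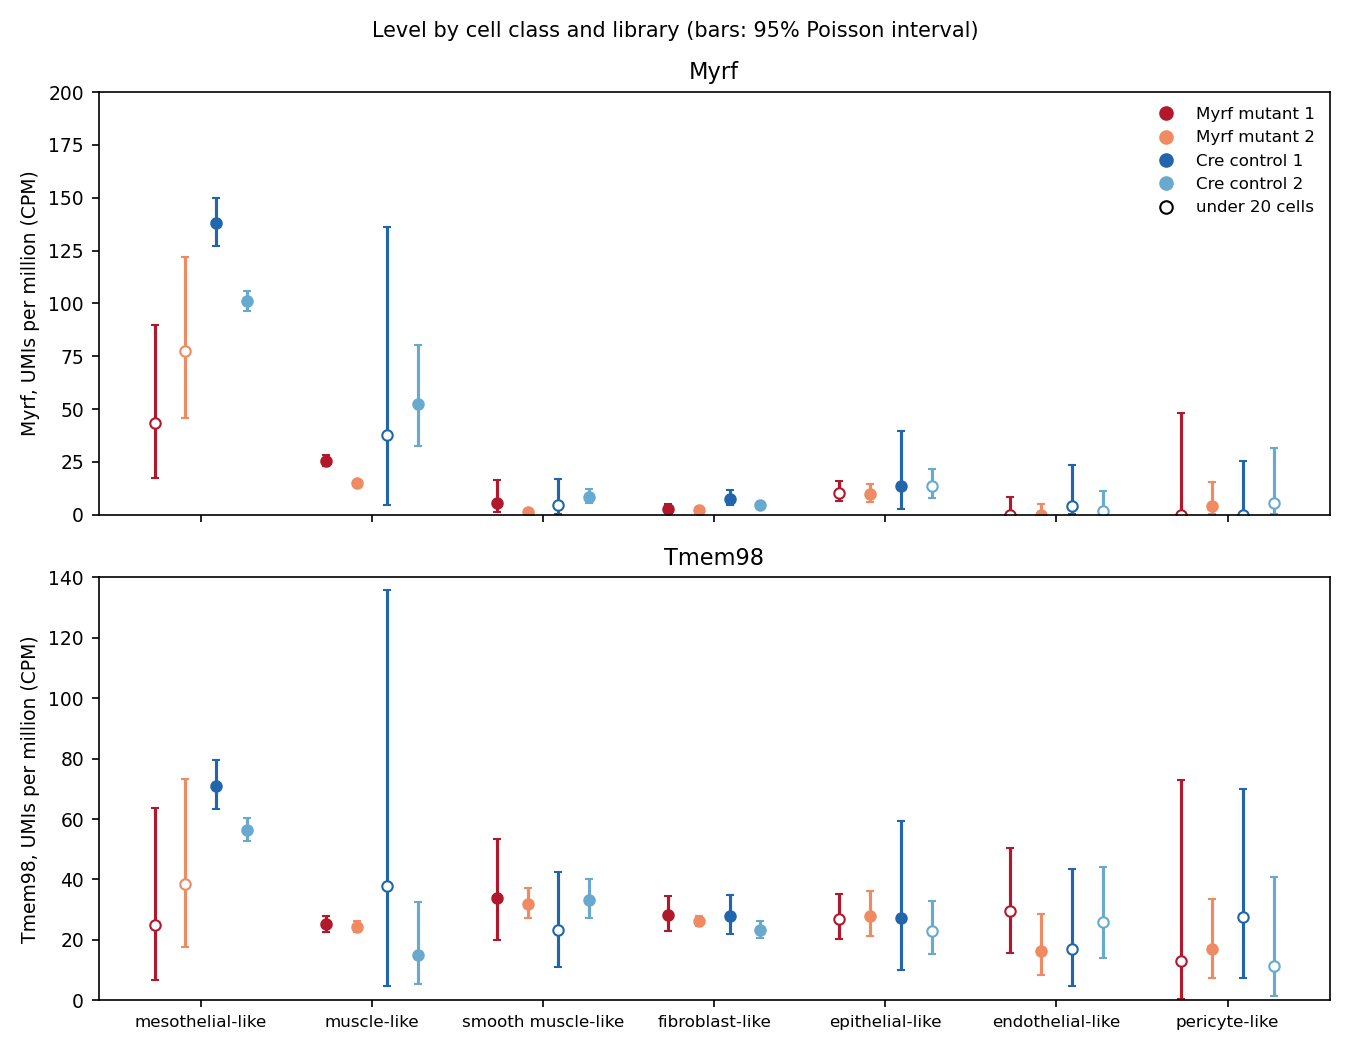
Level of Myrf (upper panel) and Tmem98 (lower panel) in each named class and library in CPM, with exact 95% Poisson intervals and open circles for fewer than 20 cells. Myrf stands at 138 and 101 CPM in control mesothelial-like cells and at 25.4 and 14.9 CPM in mutant muscle-like cells, and is under 15 CPM in fibroblast-like, smooth muscle-like and epithelial-like cells of all 4 libraries, while Tmem98 lies mostly between 15 and 35 CPM outside control mesothelial-like cells.

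Mesenchymal-like cells (fibroblast-like, smooth muscle-like, muscle-like and pericyte-like together) were present in number in both genotypes, 382 and 4144 cells in mutants against 118 and 677 in controls. Summed over them, Tmem98 was at 26.0 and 25.8 CPM in mutants, against 27.3 and 25 CPM in controls. The mutant values lay between those of the controls. The log2 change of Tmem98 there was 0.08 ± 0.23 (SE, n = 2 libraries each), with a 95% interval of -0.48 to 0.64 (edgeR quasi-likelihood adjusted p = 0.989). With mesothelial-like cells and mixed barcodes left out of the sorted cells, it was 0.11 ± 0.23 (interval -0.45 to 0.66), against -0.71 with them. In that fit 0 of 14984 genes passed with edgeR's quasi-likelihood test, and 953 had an unadjusted p under 0.05.

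Myrf in mesenchymal-like cells was at 20.5 and 6.94 CPM in mutants, against 7.28 and 6.70 CPM in controls. Mutant replicate 1 stood apart from the other 3 libraries, and 68.6% of its mesenchymal-like cells were muscle-like, with 34.6% in mutant replicate 2, against 1.69% and 3.25% in the controls. The log2 change was 0.99 ± 0.46 (95% interval -0.12 to 2.09) and did not pass (edgeR quasi-likelihood adjusted p = 0.681). Of 14324 genes tested in mesenchymal-like cells 2 passed (0.0140%), both higher in mutants, and 1204 had an unadjusted p under 0.05 (8.41%). None of the 14324 passed as lower in mutants (0%). DESeq2 called 365 of them (2.55%) and 0 of the 2 members there.

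The sign for Myrf in mesenchymal-like cells turned with the cells summed. With muscle-like cells left out, Myrf was at 2.98 and 2.09 CPM in mutants, against 6.78 and 5.50 CPM in controls. Its log2 change was -1.20 ± 0.42 (edgeR quasi-likelihood adjusted p = 1, unadjusted under 0.05). Of 13042 genes 0 passed in that fit, and 254 had an unadjusted p under 0.05. Without mutant replicate 2 the value over all mesenchymal-like cells was 1.54 and passed (adjusted p = 0.0156), and without mutant replicate 1 it was 0.22 and did not. In the sorted cells without mesothelial-like cells and mixed barcodes, Myrf was at 18.9 and 6.95 CPM in mutants, against 7.46 and 7.24 CPM in controls, and its log2 change was 0.83 ± 0.43 (adjusted p = 0.929).

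**Figure D4:**
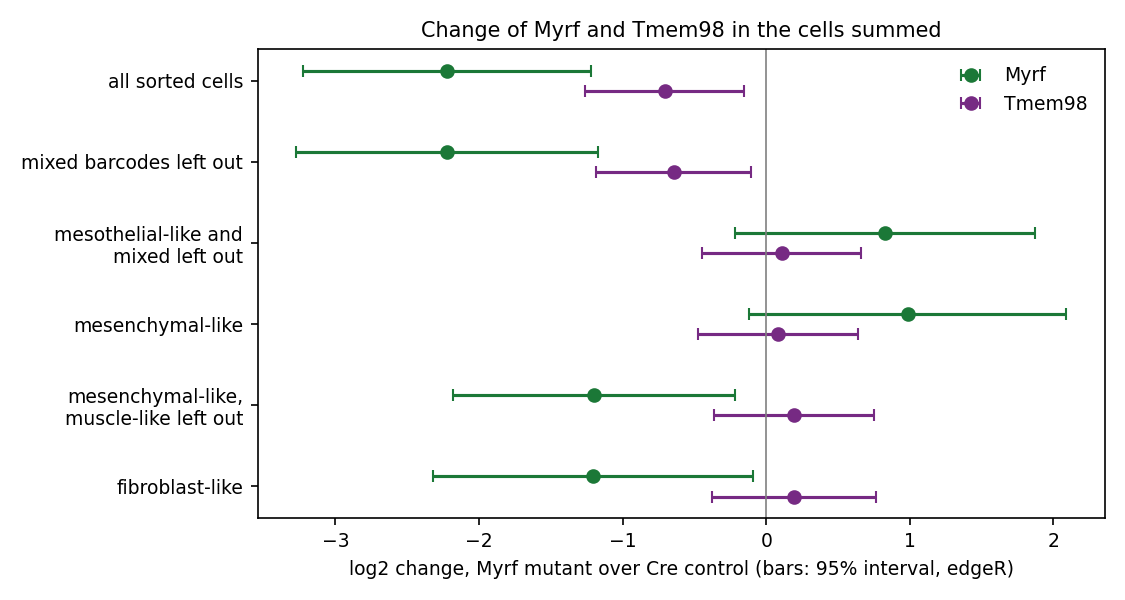
Fitted log2 change of Myrf and Tmem98, Myrf mutant over Cre control, in 6 choices of the cells summed per library, with 95% intervals from edgeR's quasi-likelihood fit (n = 2 libraries each). Myrf lies at -2.22 over all sorted cells, at 0.99 in mesenchymal-like cells and at -1.21 in fibroblast-like cells, while Tmem98 lies between -0.71 and 0.20.

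In mesothelial-like and muscle-like cells, those with a Myrf UMI were not seen to hold Tmem98 more often than cells without one. At 5000 UMIs per cell, Tmem98 was read in 33.3% of 51 control replicate 1 mesothelial-like cells with a Myrf UMI and in 32.8% of 67 without one. In control replicate 2 the shares were 18.5% of 297 and 25.8% of 423 cells, with intervals of 14.3 to 23.4% and 21.7 to 30.2% that overlap. In muscle-like cells Tmem98 was read in 9.68% of 31 cells with a Myrf UMI and 10.9% of 220 without one in mutant replicate 1. The shares in mutant replicate 2 were 7% of 100 and 11.4% of 1298 cells. In fibroblast-like cells of mutant replicate 2, Tmem98 was read in 17.2% of 29 cells with a Myrf UMI and in 11.6% of 2283 without one, and in those of control replicate 2 in 0 of 17 (allowing up to 19.5%) and in 13.3% of 451, with overlapping intervals in both libraries. With each cell at a single depth, these shares cover counting error only and give the cells of 1 library at a time.

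The genes whose profile was most like that of Myrf were ranked by Pearson's r of log2(CPM + 1) over 16 library and class profiles of at least 20 cells, among 8959 genes with a mean of at least 10 CPM. Profiles of 1 library share its depth and free RNA, and the control mesothelial-like pair lies far from the rest, so r is a description. The 4 most alike were Tmem150a (0.95), Gpm6a (0.93), Smim1 (0.93) and Id4 (0.92). Gpm6a, a neuronal membrane glycoprotein gene and one of the mesothelial markers used here, was at 17.6 and 8.59 CPM over the sorted mutant cells, against 237 and 184 CPM in controls, and fell with a log2 change of -3.98 (edgeR quasi-likelihood adjusted p = 0.0197). Id4, an inhibitor of basic helix-loop-helix factors, was at 30.8 and 24.7 CPM in mutants, against 116 and 96.0 CPM in controls, and fell too (log2 change -1.86, edgeR adjusted p = 0.0466). Of all genes tested, 0.357% passed. Gpm6a and Id4 were picked by likeness to Myrf in these same libraries, so their falls are no independent result.

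Smim1 is the membrane protein gene of a blood group, and its level was 82.8 and 63.5 CPM in mutants, against 194 and 265 CPM in controls (log2 change -1.61, edgeR adjusted p = 0.150). Tmem150a was at 11.9 and 6.55 CPM in mutants, against 26.8 and 25.8 CPM in controls (log2 change -1.49, edgeR adjusted p = 0.131). Wt1 came at rank 78 (0.85) and Upk3b at rank 107 (0.84). Tmem98 came at rank 1269 with r = 0.53.

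For Tmem98 the most alike genes were Ctdspl (0.91), a small phosphatase gene, Zfp579 (0.89), Ggcx (0.89), the gene of gamma-glutamyl carboxylase, Tada3 (0.88), an adaptor of histone acetylase complexes, and BC004004 (0.86). Ctdspl, the nearest, was at 53.5 and 38.4 CPM in mutants, against 89.9 and 66.2 CPM in controls over sorted cells (log2 change -0.70, edgeR adjusted p = 0.411). In control mesothelial-like cells Ctdspl stood at 121 and 101 CPM and in fibroblast-like cells at 59.3 and 37.8 CPM in mutants, against 56.7 and 43.0 CPM in controls. Myrfl, with a mean of 0.00605 CPM over the profiles, was too low to rank.

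**Figure D5:**
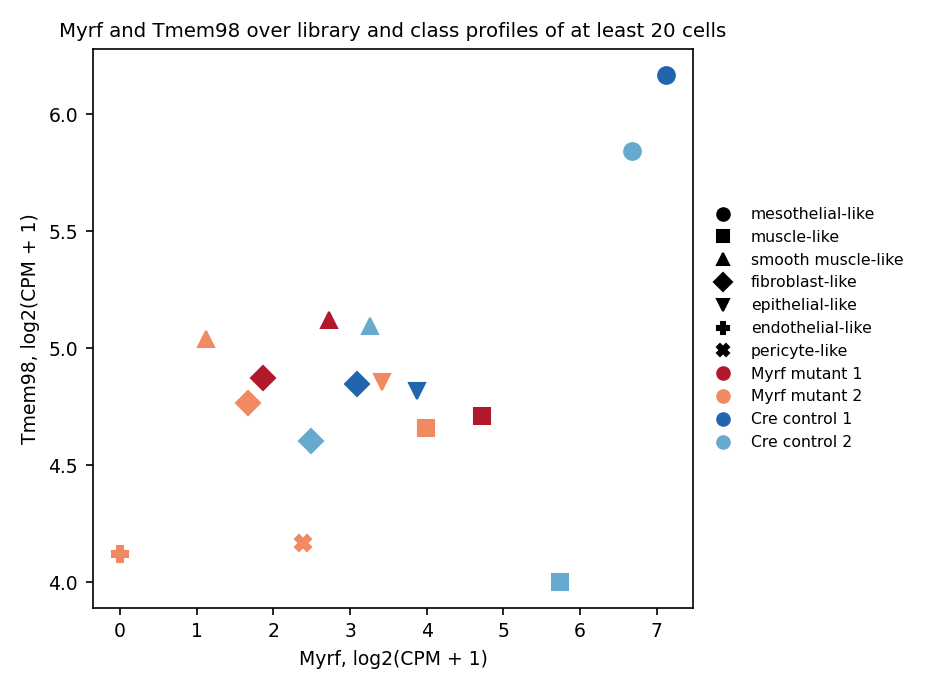
Myrf against Tmem98 over the 16 library and class profiles of at least 20 cells, both as log2(CPM + 1), with a shape for each class and a colour for each library. The control mesothelial-like profiles stand at the upper right, and muscle-like profiles have more Myrf but no more Tmem98 than fibroblast-like ones.

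None of the 4 tested genes next to the members on their chromosomes passed with edgeR. Tmem258, whose gene ends 447 bases from the 3′ end of Myrf on the opposite strand and which encodes a subunit of the oligosaccharyltransferase, was at 156 and 323 CPM in mutants, against 163 and 277 CPM in controls (log2 change 0.22 ± 0.54, edgeR quasi-likelihood adjusted p = 0.982). The use of strand in counting was not given in the sources used here. Tmem258 had another pattern over classes than Myrf: in mesothelial-like cells of the controls it was at 138 and 181 CPM, and in fibroblast-like cells at 191 and 336 CPM in mutants, against 203 and 259 CPM in controls. Dagla, which makes an endocannabinoid, was at 5.96 and 2.81 CPM in mutants, against 5.50 and 4.67 CPM in controls (edgeR adjusted p = 0.980). Rab3ip beside Myrfl and Myo1d beside Tmem98 changed by log2 values of 0.12 ± 0.26 and -0.36 ± 0.37, for which edgeR's adjusted p was 0.981 and 0.979.

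Of 13 partners and regulators of MYRF listed from work on myelin, 7 were tested in sorted cells and 3 of these had lower values in mutants, with a median log2 change of 0.02, against 7661 of 16246 lower and a median of 0.03 over all genes. None of the 7 passed with edgeR or DESeq2 (0.357% and 3.07% of all genes passed), and 2 had an unadjusted p under 0.05, as had 8.74% of all genes. One was Tmem98 and the other Fbxw7, the ubiquitin ligase subunit that targets the nuclear fragment of MYRF for degradation. Fbxw7 was at 49.7 and 35.8 CPM in mutants, against 28.1 and 25.1 CPM in controls, so the groups did not overlap (log2 change 0.73 ± 0.21, edgeR adjusted p = 0.331). In mesenchymal-like cells Fbxw7 was at 52.3 and 36.4 CPM in mutants, against 31.9 and 40.3 CPM in controls, with overlap (log2 change 0.35 ± 0.25, edgeR adjusted p = 0.906). Tcf7l2, a Wnt effector of the oligodendrocyte lineage, was at 70.2 and 65.6 CPM in mutants, against 90.6 and 70.3 CPM in controls (log2 change -0.16 ± 0.23, adjusted p = 0.980). Sox10, Olig1, Olig2, Nkx2-2, Nkx6-2 and Zfp488, factors of the oligodendrocyte lineage, were too low to be tested. In mesenchymal-like cells the median of the 7 was -0.11, against 0.02 over all genes, and none passed with either tool. There 1 had an unadjusted p under 0.05, against 8.41% of all genes: Chd7, with a log2 change of -1.24 ± 0.36 (edgeR adjusted p = 0.363).

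Of 18 myelin genes, the class that MYRF is known to activate in oligodendrocytes, 11 were tested in sorted cells and 5 had lower values in mutants, with a median log2 change of 0.08. None passed with edgeR, 4 had an unadjusted p under 0.05, against 8.74% of all genes, and DESeq2 called Mbp and Trf lower and Cldn11 higher, against 3.07% of all genes called. Mbp, myelin basic protein, was at 3.39 and 0.755 CPM in mutants, against 19.3 and 14.7 CPM in controls (log2 change -3.12 ± 0.61, edgeR adjusted p = 0.148). By class, Mbp had 2 and 6 UMIs in the 2 and 10 mesothelial-like cells of the mutants, where 3 counts would be 18.7 and 12.9 CPM. In mesothelial-like cells of the controls Mbp was at 35.5 and 34.2 CPM, and the mutant cells are too few for a comparison. In muscle-like cells it was at 1.48 and 0.752 CPM in mutants, against 0 UMIs in both controls. Epithelial-like cells carried Mbp as well, at 23.9 and 12.9 CPM in mutants, against 27.2 and 22.8 CPM in controls, while smooth muscle-like and endothelial-like cells held no Mbp UMI in any library.

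Trf, transferrin, was at 8.21 and 1.86 CPM in sorted mutant cells, against 25.1 and 16.9 CPM in controls (log2 change -2.10 ± 0.59, edgeR adjusted p = 0.306). In mesothelial-like cells it had 0 UMIs in both mutants, where 3 counts would be 18.7 and 12.9 CPM, against 43.1 and 32.5 CPM in controls. Cldn11, the claudin of myelin tight junctions, had the opposite sign, at 18.9 and 9.76 CPM in sorted mutant cells, against 0.489 and 1.29 CPM in controls (log2 change 3.77 ± 0.53, edgeR adjusted p = 0.0672). In muscle-like cells Cldn11 was at 26.8 and 21.9 CPM in mutants, against 0 UMIs in 2 cells and 22.5 CPM (9 UMIs) in controls. Fibroblast-like cells had 4.67 and 3.30 CPM in mutants, against 1.5 and 1.86 CPM in controls. Mesothelial-like cells held no Cldn11 UMI in the mutants, against 0 and 0.439 CPM in the controls. In mesenchymal-like cells 8 were tested, with a median of 0.33, and none passed with edgeR, 1 had an unadjusted p under 0.05, and DESeq2 called Cldn11, against 8.41% and 2.55% of all genes by these rules.

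Other membrane-anchored transcription factors served for comparison. Of 14, 13 were tested in sorted cells, 5 had lower values in mutants, the median log2 change was 0.06, none passed with edgeR or DESeq2, and 1 had an unadjusted p under 0.05, against 8.74% of all genes. This was Creb3l1, a factor released by cleavage in the Golgi, at 79.7 and 57.5 CPM in mutants, against 120 and 109 CPM in controls (log2 change -0.69 ± 0.23, edgeR adjusted p = 0.424). Notch2 and Creb3 followed, at -0.54 ± 0.24 and -0.30 ± 0.23 on the log2 scale (adjusted p of 0.626 and 0.931 by edgeR). In mesenchymal-like cells the median was 0.20, none passed with either tool, and 2 had an unadjusted p under 0.05, against 8.41% of all genes. Creb3l1 there was at 86.3 and 58.8 CPM in mutants, against 44.6 and 48.5 CPM in controls. These sums hold unequal shares of muscle-like cells, as given above, and in fibroblast-like cells Creb3l1 was at 37.7 and 45.3 CPM in mutants, against 49.9 and 55.7 CPM in controls.

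All 16 genes listed for diaphragmatic hernia were tested in sorted cells. Of these, 10 had lower values in mutants, the median log2 change was -0.16, none passed with edgeR, 3 had an unadjusted p under 0.05, and DESeq2 called Wt1 lower. Over all genes, 7661 of 16246 were lower, 8.74% had an unadjusted p under 0.05 and DESeq2 called 3.07%. Wt1 was at 25 and 13.6 CPM in mutants, against 82.1 and 78.0 CPM in controls (log2 change -2.03 ± 0.28, edgeR adjusted p = 0.0670). Stra6, a retinol transporter gene, was at 2.67 and 1.25 CPM in mutants, against 0.489 and 0.293 CPM in controls (log2 change 2.44 ± 0.61, adjusted p = 0.254). Gata4, a zinc finger factor of heart and diaphragm, was at 14.3 and 9.08 CPM in mutants, against 21.2 and 16.9 CPM in controls (log2 change -0.65 ± 0.24, edgeR adjusted p = 0.502). In mesenchymal-like cells the median was -0.18, none passed with edgeR, 5 had an unadjusted p under 0.05, and DESeq2 called Gata6 higher, against 8.41% and 2.55% of all genes. Gata4 had the opposite sign there, at 16.3 and 9.4 CPM in mutants, against 4.55 and 6.25 CPM in controls (log2 change 1.24 ± 0.34, edgeR adjusted p = 0.327). Wt1 also turned, to a log2 change of 0.69 ± 0.66 with overlapping groups. These sums hold unequal shares of muscle-like cells, as given above. Of 4 genes tied to eye size, only Best1 was read enough to be tested, with a log2 change of 0.62 ± 0.55 (edgeR adjusted p = 0.968).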

How the data were processed

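The authors deposited raw UMI counts for each gene in each barcode, as whole numbers without normalization, made with Cell Ranger 6.0.2 on mm10 per the submitters' processing notes. Annotation release, cell-calling settings and strand use are not given in the sources used here. No row stands for tdTomato or Cre.

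Barcodes with at least 1000 genes and at most 15% mitochondrial UMIs were kept, 8733 in all. These filters removed 15.6 and 5.92% of mutant barcodes, against 32.5 and 9.12% of control barcodes. Scrublet's automatic threshold marked only 9 doublets, so the highest scores were removed at 0.8% per 1000 barcodes, which left 8470 cells. Cells were clustered in scanpy 1.11.5 (3000 variable genes without the members and 417 cell cycle genes, centred within replicate number, 30 components, Leiden resolution 0.4). Clusters were named from marker lists: a marker counted at 10% of cells and 2-fold over the other clusters, at least 3 were needed, and a list with members among the first 3 leading genes had precedence. A cluster with at least 66% of markers within 2-fold of the rest of its library was left unnamed as mixed, which took 1 cluster, at 79.8%, the next being at 40.4%.

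UMI counts were summed per library and tested with edgeR 4.0.16 in R 4.3.3 (filterByExpr, TMM, quasi-likelihood F test, two-sided, Benjamini-Hochberg over all genes, threshold 0.05, no covariate), with DESeq2 1.42.0 as an alternative. The SE is the absolute log2 change over the square root of F. Shares were compared by exact two-sided permutation over libraries. Intervals and floors (3 counts) cover counting error only. On simulated data the edgeR script was checked for known changes. Replicates differed beyond sampling noise (chi-square per degree of freedom 203 in mutants and 97.4 in controls). Of 32285 gene IDs, 32158 matched GENCODE vM21. Of the 3 members, RefSeq's promoter table matched 1.

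The text names the members, the 5 genes most like each, annotated neighbours, and up to 3 genes of each list with the smallest p. One gene that this rule names is not reported here. Other genes named (Upk3b, Wt1 and Gata6 among them) were chosen after their values were seen. The members and lists were chosen with earlier results of these data known.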

Additional observations from a re-analysis of the deposited data

How the results depend on the processing

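Over all sorted cells the log2 change of Myrf stayed negative in every setting but 1 and passed the threshold with DESeq2 (-2.21, adjusted p = 1.32e-05), without the low-count filter (-2.21, edgeR adjusted p = 7.35e-06) and with the replicate block (-2.31, edgeR adjusted p = 0.00708). Leaving out 1 library at a time gave -2.86 to -1.77, and RLE size factors, a stricter cell filter, kept doublets, all deposited barcodes and mixed barcodes left out gave edgeR adjusted p of 0.116 to 0.148. The sign turned with mesothelial-like cells and mixed barcodes left out, an alternative chosen after seeing the data (0.83 for Myrf, 0.11 for Tmem98). Tmem98 over all sorted cells passed in no setting (lowest edgeR adjusted p 0.116, with the replicate block). In mesenchymal-like cells Myrf turned to -1.21 in fibroblast-like cells alone and -1.20 without muscle-like cells, both chosen after seeing the data, and ranged from 0.22 to 1.54 with 1 library left out. Tmem98 there ranged from -0.02 to 0.21. The cause of these changes was not tested.

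The number of genes called among sorted cells, 58, became 499 with DESeq2, 685 without the low-count filter, 525 with the replicate block, 37 without mixed barcodes, 0 without mesothelial-like cells and mixed barcodes, and 74 to 1097 with 1 library left out (116 without control replicate 2, 1097 without mutant replicate 1 and 486 without mutant replicate 2). In mesenchymal-like cells 2 became 365 with DESeq2, 820 without the filter, 35 with the replicate block, 1 at clustering resolution 0.8, 0 with the stricter filter, with doublets kept, in fibroblast-like cells alone or without muscle-like cells, and 4 to 732 with 1 library left out (332 without mutant replicate 1, 732 without mutant replicate 2, 4 without either control). Same-numbered libraries deviated together (correlation 0.597 over 8881 genes), but the labels do not say what a number marks and there are only 2 pairs, so the libraries are taken to share only a number. A lone library left in a group was assumed to vary like the other group.

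The difference in the share of cells with a Tmem98 UMI, -0.981 points, became 4.15 over all deposited barcodes and ranged from -13.7 to 11.7 with 1 library left out (5.10 without control replicate 1). That for Myrf ranged from -34.5 to -1.54. Myrfl had 2 to 5 UMIs in any setting. Of 32 class levels, 1 left its interval at resolution 0.8 and 0 did under the stricter filter or with doublets kept. At resolution 0.8 an unnamed cluster took 135 and 791 mutant cells, so the muscle-like class there was a smaller set of cells. Mesenchymal-like mutant cells then numbered 244 and 3355, against 382 and 4144 in the main setting. The few UMIs limit what can be said of Myrfl everywhere. The small number of cells limits the mutant mesothelial-like cells and the muscle-like cells of the controls.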

Other observations

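In barcodes that failed the cell filters, Myrf was at 7.43 CPM (1 UMI) and 7.45 CPM (3 UMIs) in the mutant libraries, against 15.1 CPM (6 UMIs) and 48.5 CPM (18 UMIs) in the controls. Tmem98 in them was at 22.3 CPM (3 UMIs) and 12.4 CPM (5 UMIs) in mutants, against 10.1 CPM (4 UMIs) and 45.8 CPM (17 UMIs) in controls. In control replicate 2, Myrf was thus as abundant in failed barcodes as in the cells kept, also 48.5 CPM.

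At the finer clustering, the mutant cells in the large mesothelial-like cluster numbered 1 and 3. Their Myrf level was 142 CPM (7 UMIs) and 131 CPM (8 UMIs), against 135 and 101 CPM in the controls. These 4 cells are too few for a comparison. The highest Myrf count of a single cell was 18 UMIs, in a mesothelial-like cell of control replicate 1, and the highest in a mutant was 13 UMIs, in a muscle-like cell of replicate 1.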
